A study of Mus musculus with 24 samples.

Results

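Dual specificity phosphatases of the MAP kinases were followed in the neurons and glia of the mouse hippocampus 24 hours after status epilepticus. The 9 genes Dusp1, Dusp2, Dusp4, Dusp5, Dusp6, Dusp8, Dusp10, Dusp14 and Dusp16 were chosen by name, out of 53379 genes in the count table, and all 9 passed the filter on low counts that left 37598 genes for testing. Adult male C57/BL6N mice, obtained at 8 weeks of age and acclimatised for 4 weeks, received an injection of kainic acid (KA) into the deep cortex beside the right hippocampus, or of saline in sham animals (SH), under the same anaesthesia and with the same later analgesia. KA mice without convulsive seizures had been left out by the study. Right hippocampi of 8 mice per treatment were combined into 3 pools (4 mice for replicate 1, 2 mice for each other pool), and the nuclei were sorted by NeuN, a protein of neuronal nuclei, into NeuN+ (neurons) and NeuN- (glia), which gave 12 mRNAseq libraries with n = 3 per treatment and cell type. Since the RNA came from pooled nuclei, nuclear RNA of many cells was averaged, and fewer cells of a type and less RNA per cell cannot be told apart.

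MAP kinases (ERK, JNK and p38) are switched on by phosphorylation of a threonine and a tyrosine in the activation loop, and phosphatases of this family switch them off by removing both phosphates. Several members are themselves induced by the kinases they act on, so that they form a negative feedback on the cascade. Dusp1, Dusp2, Dusp4 and Dusp5 encode the inducible nuclear enzymes, Dusp6 encodes a cytoplasmic enzyme selective for ERK, Dusp8, Dusp10 and Dusp16 encode enzymes that prefer JNK and p38, and Dusp14 encodes a small atypical member without the kinase binding domain. In the brain, strong neuronal activity is known to induce members of the nuclear group.

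The libraries held between 7769400 and 40364768 counts (median 21380824.5). SH glia replicate 1 and KA glia replicate 2 were amplified from about 0.05 ng RNA with 15 PCR cycles, the other libraries from about 1 ng with 10 cycles. The NeuN gene Rbfox3 lay between 161 and 274 CPM in neurons and between 17.7 and 56.9 CPM in glia (CPM, counts scaled to library size with TMM factors). The astrocytic gene Aldh1l1, the microglial gene Cx3cr1 and the oligodendrocytic gene Mbp were higher in every library of glia than in every library of neurons. These 4 genes followed the labels, but not every listed marker did. At an FDR below 0.05, 8 of 10 neuronal markers in SH and 9 in KA were higher in neurons (6.05% and 5.88% of all genes). Tubb3 of that list lay at 35.3 to 60.3 CPM in KA neurons and 50.8 to 72.4 CPM in KA glia. Of 10 astrocytic markers, 10 in SH and 7 in KA were higher in glia (4.67% and 3.98%). The 10 neuronal markers summed to 466 to 1684 CPM in libraries of glia and to 4917 to 7450 CPM in libraries of neurons, and no marker of that list was at 0 in any library.

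Promoter sequence in the RefSeq table (GRCm38.p6) was available for 8 of the 9 genes, not for Dusp4, as the 250 bases before the start annotated there. For Dusp1, Dusp8, Dusp10 and Dusp14 this window lies inside the span of the gene in GENCODE, which begins further upstream. Each window was searched on both strands for the cAMP response element (CRE, TGACGTCA), its core TGACG (which every full CRE also holds), the AP-1 site TGANTCA, the CArG box of serum response factor and the ETS site CCGGAAG. A full CRE was present in 1.55% of all 32851 windows of the table, a core in 17.8%, an AP-1 site in 6.75%, a CArG box in 1.47% and an ETS site in 6.91%. Among the members, the windows of Dusp1 and Dusp8 held a full CRE, that of Dusp5 held CArG boxes and a core site, and that of Dusp16 held a core site. Windows of Dusp2, Dusp6, Dusp10 and Dusp14 held none of these letters, and for Dusp14 only 27 of its bases lie before an exon of the gene. The sequences of Dusp1, Dusp5 and Dusp8 are shown because they carry the rarer motifs, with matches in capitals. They run 5′ to 3′ on the strand of the gene and stop where an exon of the gene begins.
Dusp1 promoter, chr17:26508520-26508722, minus strand: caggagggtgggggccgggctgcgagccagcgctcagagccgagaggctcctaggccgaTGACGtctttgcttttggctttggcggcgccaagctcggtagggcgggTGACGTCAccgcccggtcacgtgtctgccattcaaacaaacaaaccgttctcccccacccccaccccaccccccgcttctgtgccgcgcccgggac
Dusp5 promoter, chr19:53528895-53529108, plus strand: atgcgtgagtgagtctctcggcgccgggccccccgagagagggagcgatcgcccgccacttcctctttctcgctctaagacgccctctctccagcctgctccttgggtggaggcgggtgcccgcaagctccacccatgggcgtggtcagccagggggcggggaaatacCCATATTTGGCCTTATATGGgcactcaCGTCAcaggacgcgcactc
Dusp8 promoter, chr7:142095285-142095534, minus strand: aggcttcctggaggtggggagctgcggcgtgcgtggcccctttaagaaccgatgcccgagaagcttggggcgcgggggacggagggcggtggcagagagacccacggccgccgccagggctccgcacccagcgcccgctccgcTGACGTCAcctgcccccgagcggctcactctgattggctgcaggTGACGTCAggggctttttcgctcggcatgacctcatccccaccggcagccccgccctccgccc
In Dusp1 the full CRE lay 143 to 136 bases before the start, and a further core 191 to 187 bases before it. In Dusp5 the CArG boxes lay next to each other, at 82 to 73 and 72 to 63 bases, followed by the core site on the other strand at 55 to 51 bases. In Dusp8 the full CREs lay at 107 to 100 and 63 to 56 bases. These matches describe the letters only, and binding was not measured.

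The first comparison asked which phosphatases differed between KA and SH in neurons. In the fit of group means, 0 of 9 members passed an FDR of 0.25 (Benjamini-Hochberg adjusted p of edgeR's quasi-likelihood test), against 0.34% of all genes, and 3 members (Dusp1, Dusp4 and Dusp5) had an unadjusted p below 0.05, against 3.2% of all genes. DESeq2 on the same groups called Dusp4, against 1.21% of all genes. When neurons were fitted apart from glia, Dusp1, Dusp4 and Dusp5 were called higher (FDR 0.128, 0.0569 and 0.0996), against 2.05% of all genes, and Dusp6 had an FDR of 0.271. The study, which also treated the cell types separately, listed Dusp4 and no other member as upregulated in neurons at the same threshold. The same 3 members were called among genes with at least 10 counts in every library, against 2.5% of these genes, and Dusp4 and Dusp5 with upper quartile scaling, against 0.798%. Libraries of the same replicate number deviated together from their group means, and with the replicate number as a block 4 of 9 members rose at an FDR below 0.25, namely Dusp1, Dusp4, Dusp5 and Dusp6, against 1.94% of all genes called higher in that fit. The KA libraries of these 4 genes all lay above the SH libraries, as for 5.27% of all genes. All 9 members had a logFC (log2 fold change, KA over SH) above 0, with a median of 0.45, against 0.00048 over all genes tested.

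**Figure D1:**
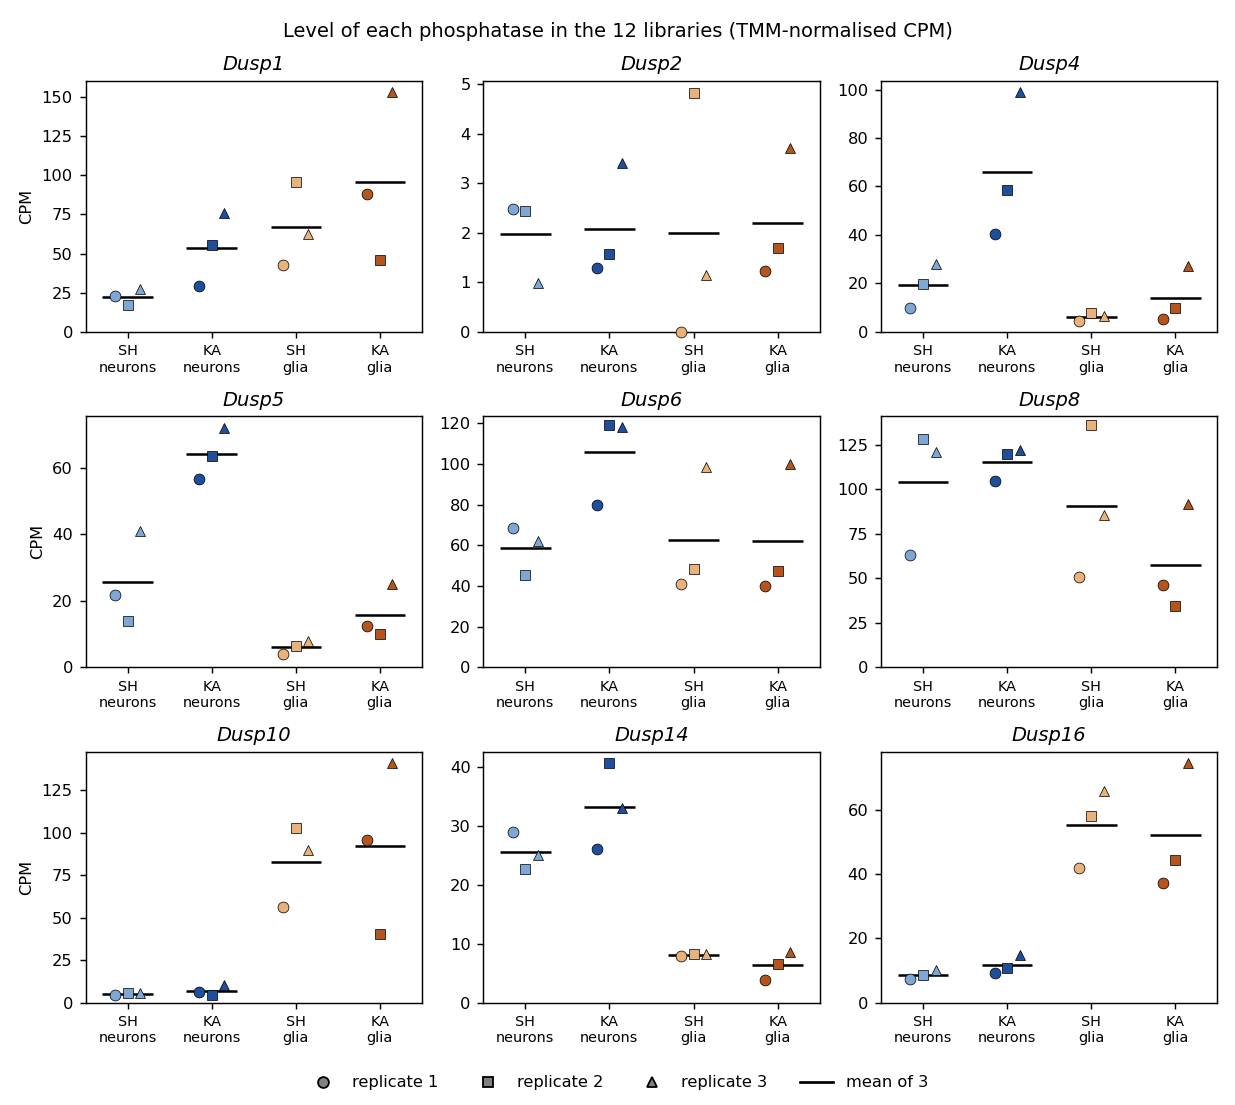
Normalised expression (CPM, linear axis from 0) of the 9 phosphatases in the 12 libraries, one panel per gene, with a symbol per replicate number and a line at the mean of 3. In neurons the KA points of Dusp1, Dusp4, Dusp5 and Dusp6 lie above all SH points, and Dusp10 and Dusp16 lie far higher in glia than in neurons.

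Dusp4 (ENSMUSG00000031530.6, chromosome 8 from 34807297 to 34819894, plus strand), a nuclear phosphatase for ERK and JNK, showed the largest difference between KA and SH neurons among the members. Its level was 9.62, 19.6 and 28.2 CPM in SH neurons and 40.4, 58.4 and 98.8 CPM in KA neurons for replicates 1, 2 and 3. Within each replicate number the KA library was higher, by 2.06, 1.57 and 1.81 on the log2 scale. The groups did not overlap, and the level in KA was 3.44-fold that in SH (95% interval 1.56 to 7.57). The logFC was 1.78 (SE 0.54, FDR 0.590), and with the replicate block it was 1.81 (SE 0.32, FDR 0.00474). Dusp4 was the one member of the 4 whose call with the block was also made when any of the replicate numbers was left out.

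Dusp5 (ENSMUSG00000034765.6, chromosome 19 from 53529109 to 53542431, plus strand) encodes the nuclear phosphatase dedicated to ERK, and is the gene whose promoter with paired CArG boxes is shown above. SH neurons held 21.5, 13.99 and 40.8 CPM, and KA neurons held 56.5, 63.4 and 71.9 CPM. The 3 KA libraries were close together and above the highest SH library, which was replicate 3. The level in KA was 2.51-fold that in SH (95% interval 1.34 to 4.73), a logFC of 1.33 (SE 0.43, FDR 0.703), or 1.46 (SE 0.31, FDR 0.0185) with the replicate block. Of the exon bases of Dusp5, 22.12% are overlapped in GENCODE M21 by the opposite-strand gene AC137853.2, which has no row of its own in the count table, and counting without strand cannot tell reads of the pair apart.

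Dusp1 (ENSMUSG00000024190.6, chromosome 17 from 26505590 to 26562128, minus strand) encodes the immediate early nuclear phosphatase that acts on p38, JNK and ERK. Its level was 22.6, 17.2 and 27.4 CPM in SH neurons and 29.5, 55.2 and 75.9 CPM in KA neurons. Replicate 1 of KA lay just above the highest SH library and the other KA libraries well above it. The ratio of KA to SH was 2.39 (95% interval 1.22 to 4.69), with a logFC of 1.26 (SE 0.46, FDR 0.983) and of 1.19 (SE 0.36, FDR 0.166) with the block.

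Dusp2 (ENSMUSG00000027368.6, chromosome 2 from 127336159 to 127338376, plus strand), the nuclear ERK phosphatase best known from activated immune cells, was the lowest member per kilobase of exon in every group. It lay between 0.980 and 2.48 CPM in SH neurons and between 1.28 and 3.40 CPM in KA neurons, and the groups overlapped. The ratio of KA to SH was 1.06 with a 95% interval of 0.234 to 4.83, so at 15 to 84 counts per library in neurons of KA no difference was detectable.

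Dusp6 (ENSMUSG00000019960.8, chromosome 10 from 99263231 to 99267489, plus strand), which encodes the cytoplasmic ERK phosphatase, held 68.5, 45.6 and 62.2 CPM in SH neurons. In KA neurons it held 80.0, 119 and 118 CPM, so that the groups did not overlap, with replicate 1 of KA nearest to SH. The ratio was 1.80 (95% interval 0.979 to 3.32), the logFC 0.85 (SE 0.42, FDR 1.00), and 0.85 (SE 0.25, FDR 0.137) with the block.

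Of the enzymes that prefer JNK and p38, Dusp8 (ENSMUSG00000037887.11, chromosome 7 from 142079490 to 142095843, minus strand) had the highest level per kilobase of exon in neurons. It lay at 62.9, 128 and 121 CPM in SH and at 104, 120 and 122 CPM in KA. The groups overlapped, with a ratio of 1.11 and a 95% interval of 0.587 to 2.10. Dusp10 (ENSMUSG00000039384.8, chromosome 1 from 184013302 to 184075636, plus strand) lay at 4.30 to 5.67 CPM in SH and 4.34 to 10.6 CPM in KA neurons. Dusp16 (ENSMUSG00000030203.17, chromosome 6 from 134715468 to 134792625, minus strand) lay at 7.38 to 10.0 CPM in SH and 9.31 to 14.8 CPM in KA neurons. The atypical Dusp14 (ENSMUSG00000018648.15, chromosome 11 from 84048041 to 84069261, minus strand) lay at 22.7 to 29.0 CPM in SH and 26.1 to 40.8 CPM in KA neurons. In all 4 genes the groups overlapped, and the logFC was 0.15 for Dusp8, 0.45 for Dusp10, 0.43 for Dusp16 and 0.38 for Dusp14, none past the threshold with or without the block.

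Calls with the block in neurons also depended on single replicate numbers. With the block and without replicate 3, Dusp4 alone was called (FDR 0.180), and Dusp1, Dusp5 and Dusp6 had FDR values of 1.00, 0.266 and 1.00. Without replicate 2, Dusp6 lost its call (FDR 0.495) while Dusp1, Dusp4 and Dusp5 were called, and without replicate 1 all 4 were called. Over all genes these fits called, in either direction, 108 of 38109 without replicate 3. They called 1848 of 36962 without replicate 2 and 1520 of 39430 without replicate 1.

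**Figure D2:**
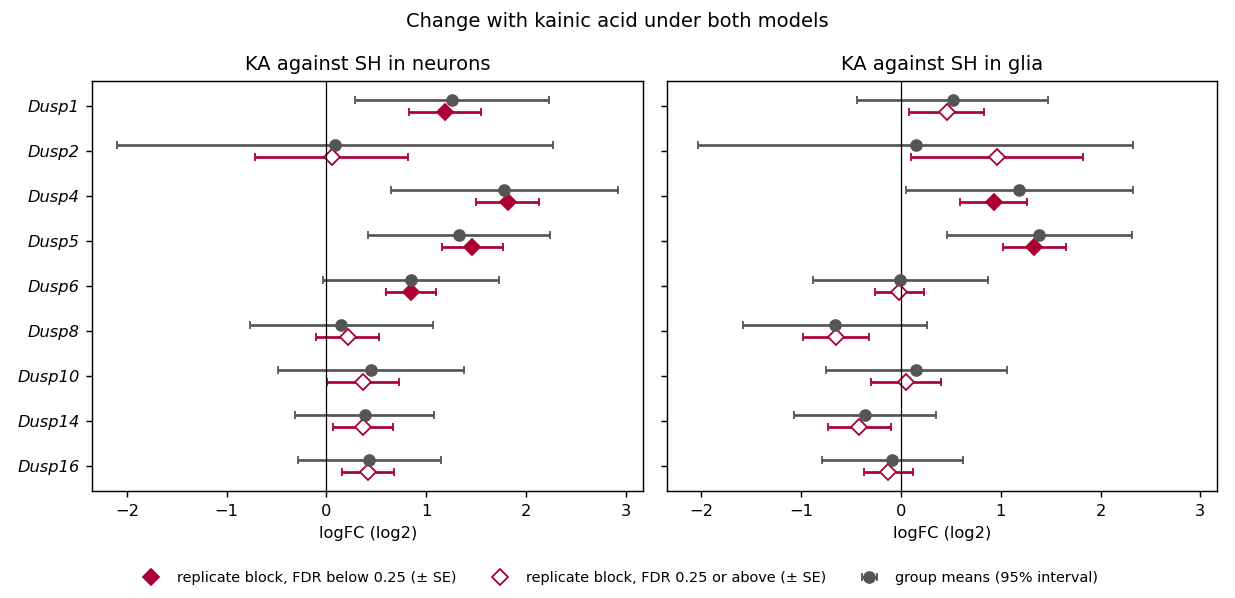
logFC (log2, KA over SH) of each phosphatase in neurons and in glia, as circles with 95% intervals for the fit of group means and as diamonds with SE for the fit with the replicate block. Filled diamonds mark an FDR below 0.25 with the block, reached by Dusp1, Dusp4, Dusp5 and Dusp6 in neurons and by Dusp4 and Dusp5 in glia.

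In glia, 0 of 9 members passed the threshold in the fit of group means with edgeR, against 0.747% of all genes. Dusp4 and Dusp5 had an unadjusted p below 0.05, against 4.79% of all genes, and DESeq2 called Dusp5, against 2.69%. With the replicate block Dusp4 and Dusp5 rose, 2 of 9 members, against 3.47% of all genes called higher. Dusp5 alone had its KA libraries all above its SH libraries, as had 3.61% of all genes. The median logFC over the members was 0.15, against 0.14 over all genes tested, and 5 of 9 members had a logFC above 0.

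Dusp5 in glia lay at 3.86, 6.23 and 7.89 CPM in SH and at 12.3, 9.98 and 24.998 CPM in KA. All KA libraries were above the SH libraries, with replicate 3 the highest in both. The ratio was 2.62 (95% interval 1.38 to 4.97), with a logFC of 1.39 (SE 0.44, FDR 0.448) and of 1.34 (SE 0.31, FDR 0.0254) with the block.

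Dusp4 in glia lay at 4.34, 7.55 and 6.63 CPM in SH and at 5.21, 9.94 and 26.97 CPM in KA. One KA library, replicate 3, stood well above the other libraries, and replicate 1 of KA lay within the SH range. The ratio was 2.28 (95% interval 1.04 to 5.002), with a logFC of 1.19 (SE 0.54, FDR 1.00) and of 0.93 (SE 0.33, FDR 0.196) with the block. With the block and without replicate 3 the logFC of Dusp4 was 0.33 (FDR 0.822) and that of Dusp5 was 1.15 (FDR 0.491), so no member was called in glia. Replicate 2 is the pair with the low-input KA library. With the block and without it, 5 members were called higher, namely Dusp1, Dusp2, Dusp4, Dusp5 and Dusp10. That fit tested 36962 genes and called more of them in glia than the block over all replicates did, 54.8% of them higher. The number called is given with the dependence on the processing below. These 5 calls are therefore not particular to the members.

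Dusp1 in glia held 42.4, 95.8 and 62.2 CPM in SH and 87.9, 45.7 and 153 CPM in KA. The groups overlapped. The lowest library of each treatment was its low-input one, and KA replicate 1 also lay below SH replicate 2. Dusp1 had a logFC of 0.52 (SE 0.45). When replicate 2 was left out with the block, in the fit with more calls described above, the logFC was 1.18 (FDR 0.0134). Dusp10 in glia held 56.0, 103 and 89.6 CPM in SH and 95.3, 40.5 and 141 CPM in KA, again with the lowest value in KA replicate 2. Its groups overlapped and its logFC was 0.15 (SE 0.43).

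Dusp6 lay at 40.9, 48.1 and 98.6 CPM in SH glia and at 39.9, 47.1 and 100.0 CPM in KA glia. Within each replicate number the KA and SH levels of Dusp6 were almost equal, with log2 ratios of -0.04, -0.03 and 0.02, while replicate 3 was over the others in both treatments. Its ratio of KA to SH was 0.996 with a 95% interval of 0.543 to 1.83. Dusp8 held 50.4, 136 and 85.8 CPM in SH glia and 46.2, 34.1 and 92.0 CPM in KA glia, where replicate 2 differed by -1.99 on the log2 scale and the other pairs by -0.12 and 0.10. Its logFC was -0.66 (SE 0.44), and with the block and without replicate 1 it was called lower. That fit tested 39430 genes and also called more of them in glia than the block over all replicates, 35.9% of them higher. The number called is likewise given with the dependence on the processing.

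The remaining members were not called in glia in the fit of group means or with the block over all replicates. Dusp16 lay at 41.9 to 65.9 CPM in SH and 37.3 to 74.7 CPM in KA, and Dusp14 at 7.88 to 8.32 CPM in SH and 3.82 to 8.57 CPM in KA. Dusp2 was at 0 counts in SH glia replicate 1, where 3 counts would correspond to 0.241 CPM (a limit for counting error only), and at 1.14 to 4.82 CPM in the other libraries of glia. Groups of these 3 genes overlapped, with 95% intervals of the ratio of 0.577 to 1.54 for Dusp16, 0.476 to 1.28 for Dusp14 and 0.244 to 5.02 for Dusp2.

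Marker levels in the libraries of glia are given beside these results. The 5 oligodendrocyte precursor markers summed to 1583 to 2722 CPM in SH glia and to 610 to 926 CPM in KA glia, and the 8 oligodendrocytic markers to 14283 to 29772 CPM and 7488 to 14034 CPM. The 10 microglial markers summed to 1119 to 2540 CPM in SH and 831 to 1672 CPM in KA, the 10 astrocytic markers to 1796 to 2614 and 1144 to 2191 CPM, and the 10 neuronal markers to 606 to 1684 and 466 to 1497 CPM. No marker of these 5 lists was at 0 in any library. The part of these shifts in the levels of Dusp4 and Dusp5 in glia was not tested. In neurons the sums of neuronal markers were 4953 to 7450 CPM in SH and 4917 to 6026 CPM in KA, and those of astrocytic markers 215 to 626 and 237 to 730 CPM. Single astrocytic markers moved within that sum, and with the block 2 of 10 were called higher and 1 lower in KA neurons. These 3, named after their values were seen, were Gfap at 16.6 to 49.4 CPM in SH and 25.2 to 248 CPM in KA (block logFC 1.58, FDR 0.0128), Sox9 at 5.02 to 17.2 and 17.2 to 56.3 CPM (1.61, FDR 0.00454), and Aldoc at 31.4 to 82.7 and 17.0 to 32.1 CPM (-1.21, FDR 0.025). Their part in the levels of Dusp1, Dusp4, Dusp5 and Dusp6 in neurons was not tested.

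**Figure D3:**
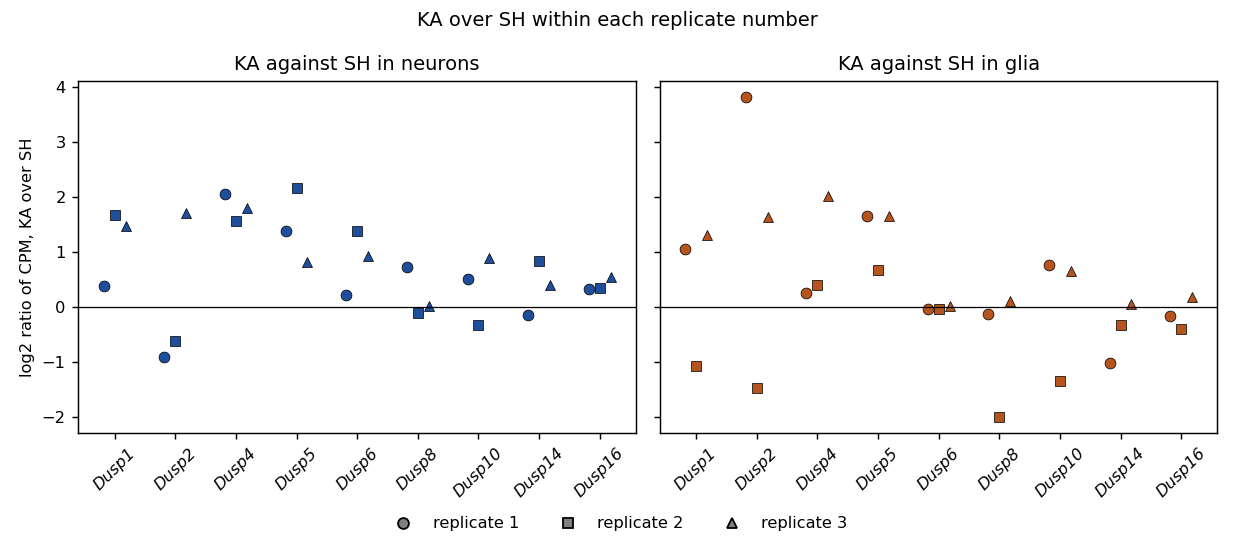
Log2 ratio of KA to SH CPM of each phosphatase within each replicate number, in neurons and in glia, one symbol per replicate number. Dusp1, Dusp4, Dusp5, Dusp6 and Dusp16 lie above 0 for all replicate numbers in neurons, and Dusp4 and Dusp5 in glia. In glia replicate number 2 lies lowest for Dusp1, Dusp2, Dusp5, Dusp8, Dusp10 and Dusp16. KA and SH pools of the same number came from different mice, and the share of all genes with such signs was not counted.

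Whether the KA effect differed between neurons and glia was tested as an interaction. None of the 9 members and 0 of all 37598 genes passed an FDR of 0.25 with edgeR, and an unadjusted p below 0.05 was found for 0 members and for 502 genes (1.34%). With the replicate block 0 members were called, against 0.402% of all genes. DESeq2 also called 0 members, while it did call other genes, 51.3% of them with a difference above 0. The number of genes that DESeq2 called here was not kept. For Dusp6, at 0.85 in neurons and -0.01 in glia, the difference of logFC in the fit of group means was 0.86 (95% interval -0.38 to 2.10). Its unadjusted p there was 0.163 (quasi-likelihood test). With the block the difference for Dusp6 was 0.86 (SE 0.35), with an unadjusted p of 0.023 and an FDR of 0.884 in the same test. In the fit of group means the difference was 0.60 for Dusp4 (95% interval -0.98 to 2.17), 0.74 for Dusp1 (-0.61 to 2.09) and -0.06 for Dusp5 (-1.32 to 1.21). All of these intervals, from the group means, included 0, and no member was called with the block. Neither a shared nor a separate response was shown for these members.

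The phosphatases also divided by cell type, apart from treatment. In SH, 5 of 9 members differed between neurons and glia at an FDR below 0.05, against 10.7% of all genes, with Dusp5 and Dusp14 higher in neurons (6.05% of all genes) and Dusp1, Dusp10 and Dusp16 higher in glia (4.67%). In KA, 5 of 9 members differed, against 9.86% of all genes, with Dusp4, Dusp5 and Dusp14 higher in neurons (5.88%) and Dusp10 and Dusp16 higher in glia (3.98%). With a block by pool, since each pool gave 1 library of each cell type, Dusp4 was added in SH (FDR 0.000461), against 21.7% of all genes called, and Dusp6 and Dusp8 were added in KA, against 20.7%. The libraries of neurons were all above those of glia for 3 members in SH and 4 in KA, against 14.1% and 15.3% of all genes, and all below for 3 members in SH and 2 in KA, against 8.57% and 9.84%.

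Dusp10, whose enzyme acts on JNK and p38, showed the widest separation. It held 4.30, 5.48 and 5.67 CPM in SH neurons against 56.0, 103 and 89.6 CPM in SH glia. The logFC of neurons over glia was -4.00 (SE 0.49, FDR 0.000112) in SH and -3.71 (SE 0.48, FDR 0.00036) in KA, and every library of glia was above every library of neurons. Dusp10 in neurons amounted to 5.32% to 7.68% of its level in glia of the same pool in SH, and to 6.45% to 10.7% in KA. The summed microglial markers in neurons amounted to 4.17% to 4.80% and 5.61% to 7.74% of their level in glia, and the astrocytic markers to 8.60% to 23.9% and 10.8% to 43.7%. The share of the Dusp10 signal in neurons that comes from glial RNA was not tested.

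Dusp16, the partner of Dusp10 in its preference for JNK, held 7.38, 8.43 and 10.0 CPM in SH neurons and 41.9, 58.2 and 65.9 CPM in SH glia. Its logFC of neurons over glia was -2.68 (SE 0.36, FDR 0.000193) in SH and -2.16 (SE 0.35, FDR 0.00106) in KA, again without overlap. In neurons Dusp16 amounted to 14.5% to 17.6% of its level in glia in SH and to 19.8% to 24.97% in KA, above the corresponding microglial and oligodendrocytic shares but within the range of the astrocytic ones. Dusp1 was the third member higher in glia of SH, with a logFC of -1.58 (SE 0.46, FDR 0.0366) and no overlap. In KA its logFC was -0.84 (SE 0.45, FDR 0.384) and the libraries overlapped, but the change of this difference between treatments did not pass the test given above.

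On the neuronal side, Dusp14 held 29.0, 22.7 and 25.1 CPM in SH neurons and 7.88, 8.32 and 8.28 CPM in SH glia. The logFC was 1.65 (SE 0.34, FDR 0.00418) in SH and 2.39 (SE 0.35, FDR 0.000597) in KA. For Dusp5 it was 2.08 (SE 0.45, FDR 0.0054) in SH and 2.02 (SE 0.44, FDR 0.0064) in KA, and for Dusp4 1.63 (SE 0.54, FDR 0.0688) and 2.22 (SE 0.55, FDR 0.0134). The libraries of neurons were above those of glia without overlap for all 3 genes in both treatments. In glia, Dusp5 amounted to 17.9% to 44.5% of its level in neurons of the same pool in SH and to 15.7% to 34.7% in KA, Dusp4 to 23.6% to 45.1% and 12.9% to 27.3%, and Dusp14 to 27.2% to 36.7% and 14.6% to 25.9%. The neuronal markers in glia amounted to 11.98% to 30.1% and 9.47% to 24.8%, so the ranges overlapped, and the part of neuronal RNA in the glial levels of these phosphatases was not tested.

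**Figure D4:**
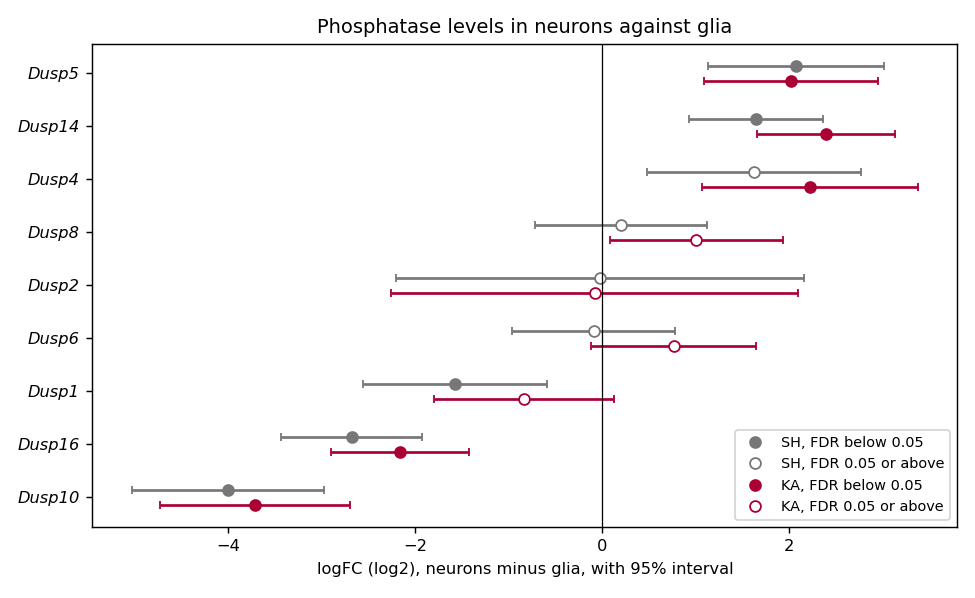
logFC (log2) of neurons minus glia with 95% intervals for the 9 phosphatases, in SH and in KA, ordered by the value in SH, with filled points at an FDR below 0.05. Dusp10 and Dusp16 lie furthest to the side of glia and Dusp4, Dusp5 and Dusp14 to the side of neurons in both treatments.

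Calls between the cell types depended on single libraries for some members. Dusp10 and Dusp16 were called whichever library was left out. In SH, Dusp1 was no longer called when any library of neurons, or glia replicate 2 or 3, was left out, and Dusp5 when glia replicate 1 was left out. In KA, the calls of Dusp4 and Dusp5 both needed glia replicates 1 and 2, and that of Dusp4 also neurons replicate 3, whereas Dusp6 and Dusp8 were called in addition without glia replicate 3. Without both low-input libraries 3 members were called in each treatment, Dusp1, Dusp10 and Dusp16 in SH and Dusp10, Dusp14 and Dusp16 in KA. Of all calls in that fit 19.5% in SH and 38.3% in KA were higher in neurons. How many genes were called in all was not kept for the fits with libraries left out. These counts of members therefore have no share of all genes beside them.

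Per kilobase of exon, which allows levels to be set side by side between genes, the leading phosphatases of SH neurons were Dusp8 at 21.4 ± 7.35 CPM per kb and Dusp6 at 18.8 ± 3.77 (SD, n = 3). Dusp14 followed at 13.2 ± 1.64 and Dusp5 at 10.3 ± 5.58, then Dusp4 at 6.99 ± 3.39 and Dusp1 at 6.77 ± 1.54. Dusp10, Dusp16 and Dusp2 lay between 0.983 and 1.69 CPM per kb. Neighbours in this order overlapped within 1 SD, apart from Dusp6 and Dusp14, Dusp1 and Dusp10, and Dusp10 and Dusp16. In KA neurons the order was led by Dusp6 at 33.8 ± 7.14 CPM per kb, Dusp5 at 25.9 ± 3.12 and Dusp4 at 24.0 ± 10.9, with Dusp8 at 23.7 ± 1.97, and neighbours among these 4 overlapped. Below Dusp8 and without overlap with it within 1 SD, Dusp14 stood at 17.1 ± 3.78. Dusp1 followed at 16.2 ± 7.03 and overlapped within 1 SD with Dusp14 and with Dusp8. The 3 lowest were again Dusp10, Dusp16 and Dusp2, between 1.04 and 2.31 CPM per kb.

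In SH glia Dusp10 was first, at 27.2 ± 7.95 CPM per kb, followed by Dusp1 at 20.2 ± 8.14, Dusp6 at 20.0 ± 10.0 and Dusp8 at 18.6 ± 8.82, all overlapping. Dusp16 stood at 7.10 ± 1.57, Dusp14 at 4.195 ± 0.126 and Dusp5, Dusp4 and Dusp2 between 0.991 and 2.42 CPM per kb. KA glia had the same leading members, Dusp10 at 30.3 ± 16.5, Dusp1 at 28.9 ± 16.4, Dusp6 at 19.9 ± 10.5 and Dusp8 at 11.8 ± 6.26 CPM per kb, with overlap between neighbours. Dusp16 at 6.68 ± 2.55, Dusp5 at 6.38 ± 3.27, Dusp4 at 5.13 ± 4.18 and Dusp14 at 3.25 ± 1.22 CPM per kb overlapped with each other, and Dusp2 was lowest at 1.10 ± 0.661, apart from Dusp14 by more than 1 SD.

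**Figure D5:**
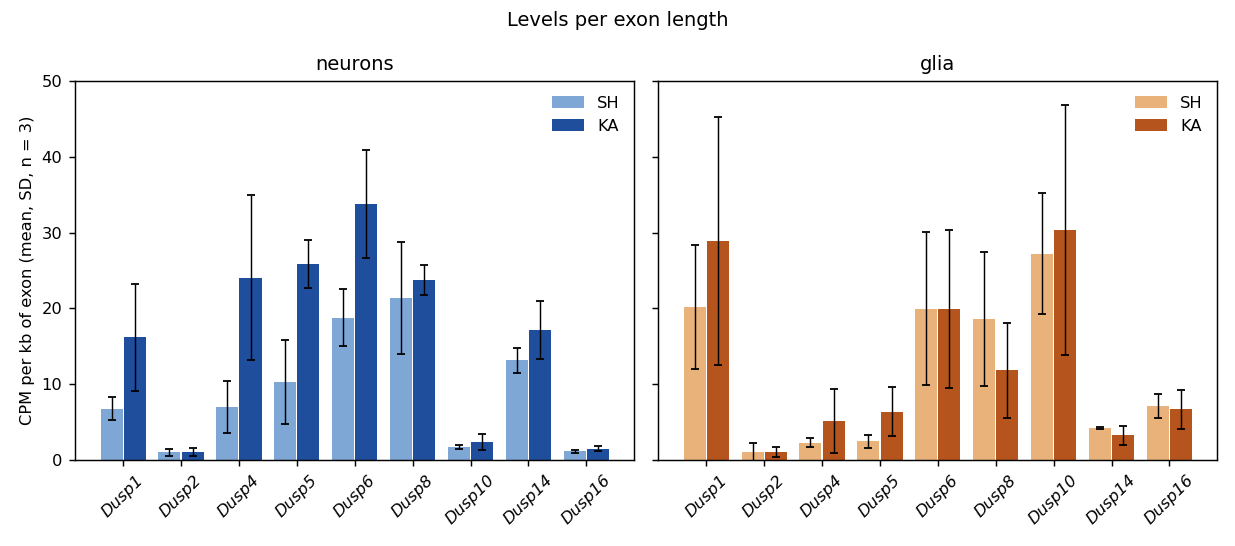
Mean CPM per kb of exon (bars, linear axis from 0, with SD of 3 libraries) of each phosphatase in SH and KA, for neurons on the left and glia on the right. Dusp8 and Dusp6 lead in SH neurons, Dusp6, Dusp5 and Dusp4 in KA neurons, and Dusp10 and Dusp1 in glia.

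The rest of the cascade was examined by lists of genes. In the fit of group means 0.34% of all genes were called in neurons and 0.747% in glia. Among 14 MAP kinases, 1 was called higher and 0 lower in neurons, and 0 in glia, with a median logFC of 0.04 in neurons and -0.14 in glia. The kinase called was Mapk4, which encodes the atypical kinase ERK4, at 20.8 to 43.5 CPM in SH and 113 to 216 CPM in KA neurons (logFC 2.19, SE 0.44, FDR 0.0943). Among 7 MAP kinase kinases and 12 genes of the Ras and Raf stage, 0 were called in either cell type, with medians of -0.24 and -0.05 in neurons and -0.36 and -0.11 in glia. With the block, 3 MAP kinases were called higher and 1 lower in neurons, and 1 gene each of the MAP kinase kinases and of the Ras and Raf stage higher, where 1.94% of all genes were called higher. In glia the block called 2 MAP kinases higher and 1 lower, where 3.47% of all genes were called higher, and 0 genes of the MAP kinase kinases or of the Ras and Raf stage. Over all 37598 genes the block called 1147 in neurons, 63.6% of them higher, and 2871 in glia, 45.5% of them higher.

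Other feedback inhibitors of the cascade were examined in the same way. Of 7 tested Sprouty, Spred and Errfi1 genes, whose proteins restrain signalling from receptors to Ras and Raf, all 7 had a logFC above 0 in neurons, with a median of 1.06. Spry2 was called, at 7.63 to 19.6 CPM in SH and 27.7 to 47.0 CPM in KA neurons (logFC 1.59, SE 0.39, FDR 0.238). With the block 5 of 7 rose in neurons, namely Spry2, Spry4, Spred1, Spred2 and Spred3, picked for naming after their values were seen, against 1.94% of all genes called higher. In glia 6 of 7 had a logFC above 0 with a median of 0.30, 0 were called, and with the block Spry2 and Spred3 rose, against 3.47% of all genes.

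Of 11 kinases that MAP kinases activate, 1 was called higher in neurons, Mapkapk3, whose product is a target of p38, at 2.61 to 5.27 CPM in SH and 8.88 to 27.4 CPM in KA (logFC 2.09, SE 0.48, FDR 0.172). The median of this list was 0.21 in neurons and -0.11 in glia, where 0 were called. With the block 2 were called higher in neurons and 1 in glia, against 1.94% and 3.47% of all genes. Of 9 genes known as outputs of ERK, 0 were called in neurons and 2 were called higher in glia. Ier3, a stress-induced early gene, lay at 3.496 to 5.95 CPM in SH and 13.8 to 48.1 CPM in KA glia (logFC 2.57, SE 0.48, FDR 0.0438). Myc, which encodes a transcription factor of growth, lay at 8.36 to 32.1 CPM in SH and 51.1 to 176 CPM in KA glia (logFC 2.25, SE 0.53, FDR 0.141). The list was not uniform, since with the block 5 of its 9 genes were called higher and 1 lower in neurons, and 2 higher and 2 lower in glia. Over all 37598 genes the block called 1147 in neurons, 63.6% of them higher, and 2871 in glia, 45.5% of them higher. The median logFC of the list was 0.84 in neurons and 0.14 in glia.

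Of 16 other dual specificity phosphatases tested, 0 were called in neurons or glia, with a median logFC of 0.08 in neurons and -0.20 in glia. With the block 1 of them was called higher in neurons, against 1.94% of all genes, and 2 lower in glia. In glia the block called 2871 of 37598 genes, 45.5% of them higher. Dusp26, picked after its values were seen, was the gene called in both directions with the block, with a logFC of 0.79 (FDR 0.231) in neurons and -1.13 (FDR 0.0207) in glia. The difference of its KA effect was 2.00 (SE 0.52, FDR 1.00), and 1.92 (SE 0.37, FDR 0.0492) with the block.

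The members were also compared by their pattern over the 12 libraries, as the root mean square difference of log2 CPM after centring each gene on its own mean. Dusp4 and Dusp5 were the closest pair of members, at 0.545, followed by Dusp6 and Dusp8 at 0.621, and Dusp10 and Dusp16 at 0.793. Dusp5 and Dusp10 were furthest apart at 3.01. Among 20337 other protein-coding genes, those nearest to Dusp4 were Sorcs3 (0.316), Unc13b (0.336) and Scrt2 (0.337). Those nearest to Dusp5 were Gpr3 (0.332), Sema3e (0.365) and Mfap4 (0.407), and those nearest to Dusp1 were Plk3 (0.253), Errfi1 (0.270) and Rel (0.322). These neighbours are named after their values were seen, and the measure also carries the depth and composition that the libraries share.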

How the data were processed

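mRNAseq libraries of 4 groups (n = 3) were used; RRBS data were not used here. The authors trimmed the reads (Trim Galore 0.4.3 per the labels), aligned them to mm10 with Rsubread and counted reads per gene with featureCounts and GENCODE M16, ignoring strand. The deposited counts are whole reads without normalisation. Genes with a GENCODE M21 symbol were filtered (filterByExpr, minimum count 10, minimum total 15), scaled by TMM over 12 libraries and tested in edgeR 4.0.16 (R 4.3.3, limma 3.58.1) with glmQLFit (legacy=TRUE), 4 group means and Benjamini-Hochberg adjustment over 37598 genes, at an FDR of 0.25 for KA against SH and 0.05 between cell types. The SE was taken as |logFC|/√F. The test was tried on simulated data that held no difference between cell types or replicate numbers. That trial cannot decide between the group means and the replicate block. The members and lists were chosen with earlier results of these data known.

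The pools are not described as paired. Deviations from group means correlated, for libraries of the same replicate number, at 0.399, 0.264 and 0.551 in neurons and 0.457, 0.543 and 0.764 in glia. Between different replicate numbers the correlations ran from -0.502 to 0.142 in neurons and from -0.671 to 0.349 in glia. The replicate number, nested in cell type, was therefore fitted as a block beside the group means. P values of the group means rest on the spread between libraries of a group, with neurons and glia of a pool taken as independent. Those with the replicate block rest on the spread left after the replicate number is removed. The study treated the cell types separately; a joint fit was used, and separate fits are among the alternatives, with other scalings, filters, gene sets, thresholds, DESeq2 1.42.0 and libraries left out. Named were all members, pathway list genes past FDR 0.25 (up to 4 per list) and the first gene of marker lists; others are marked where named. The 62 marker genes held endothelial, pericytic and blood leukocyte lists, which summed to at most 65.0, 121 and 27.7 CPM in a library. Figures were drawn with matplotlib 3.10.9.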

Additional observations from a re-analysis of the deposited data

How the results depend on the processing

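Counts of members and of all genes called depended on the model. For KA against SH in neurons, the 0 members and 128 of all genes became 3 and 656 with separate fits, 2 and 300 with upper quartile scaling, 1 and 456 with DESeq2, 0 and 253 with edgeR 4 defaults (legacy=FALSE), 3 and 465 with at least 10 counts in every library, and 0 and 18 at an FDR of 0.05. In glia, the 0 members and 281 of all genes became 0 and 146, 1 and 877, 1 and 1010, 0 and 515, 1 and 1203, and 0 and 62 under the same settings, and 0 and 41 without both low-input libraries. The replicate block gave 4 members and 1147 of all genes in neurons and 2 and 2871 in glia. Chosen after seeing the data, the block at an FDR of 0.05 gave 2 and 444 in neurons and 1 and 888 in glia, the block in separate fits 4 and 1708, and 2 and 2317, and DESeq2 with the block 4 and 2457, and 3 and 5123. The block without both low-input libraries gave 3 and 2791 in glia. The cause was not tested. With single libraries left out, 0 members were called for KA against SH in neurons and in glia, and all genes called ranged from 11 to 143 in neurons and from 83 to 554 in glia. The block without replicate 1, 2 or 3 called 1 to 4 members in neurons and 0 to 5 in glia, and 1520, 1848 and 108 of all genes, respectively, in neurons and 3100, 3490 and 326 in glia. Between neurons and glia 4 to 5 members were called in SH and 3 to 7 in KA with single libraries left out, and 3 in each without both low-input libraries. The number of all genes called in these fits between cell types was not kept, so the member counts have no background. The difference of the KA effect had 0 members called under every alternative run. Between cell types, the median logFC of all genes moved from 0.01 to -0.14 in SH and from -0.24 to -0.39 in KA with DESeq2 size factors. The share of calls that were higher in KA glia was 59.1% with TMM and 34.8% with upper quartile scaling, and higher in neurons of SH 56.4% with TMM and 45.5% with DESeq2 size factors.

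Reversed signs were found for values near 0, and also for some larger ones. Among the latter were Dusp1 in glia, at 0.52 in the fit of group means, and the difference of the KA effect of Dusp10, at 0.29. In glia Dusp6 turned to 0.10 with separate fits and 0.0073 with at least 10 counts in every library, Dusp16 to 0.044 with separate fits, and Dusp2 to -0.0087 with upper quartile scaling (-0.0097 in neurons) and -0.19 without both low-input libraries. The difference of the KA effect of Dusp5 turned to 0.12 with either block, 0.089 with upper quartile scaling, 0.038 without a filter, 0.035 without low-input libraries and 0.053 with at least 10 counts in every library, and that of Dusp2 to 0.018 with edgeR 4 defaults and 0.22 without low-input libraries. Neurons over glia in SH turned to 0.62 for Dusp2 with the pool block, and to -0.14 with at least 10 counts and -0.30 without low-input libraries for Dusp8. With single libraries left out, the logFC ranged in glia from -0.011 to 0.87 for Dusp1, -0.46 to 1.86 for Dusp2, -0.53 to 0.48 for Dusp6, -0.30 to 0.46 for Dusp10 and -0.45 to 0.078 for Dusp16, and in neurons from -0.46 to 0.34 for Dusp2 and -0.11 to 0.33 for Dusp8. The difference of the KA effect ranged from -1.77 to 0.55 for Dusp2, -0.35 to 0.46 for Dusp5 and -0.14 to 0.74 for Dusp10. Neurons over glia ranged in SH from -0.91 to 1.70 for Dusp2, -0.67 to 0.40 for Dusp6 and -0.42 to 0.62 for Dusp8, and in KA from -0.63 to 0.53 for Dusp2. With the block and a replicate number left out, the logFC ranged in glia from -0.020 to 1.18 for Dusp1, -0.019 to 2.58 for Dusp2, -0.45 to 0.71 for Dusp10 and -0.29 to 0.012 for Dusp16, and in neurons from -0.79 to 0.53 for Dusp2 and -0.061 to 0.38 for Dusp8. The block changed no other call of a member than those given above, and calls of Dusp2 rested on few counts.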
